A study of Mus musculus with 15 samples.

Results

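The proteasome is the protease complex that degrades most ubiquitin-tagged proteins of the cytosol and nucleus. Its barrel-shaped core particle has outer alpha rings, which gate the entry of substrates, and inner beta rings, which hold the catalytic sites of Psmb5, Psmb6 and Psmb7. The regulatory particle caps the core: its lid removes ubiquitin, and the ATPases of its base unfold the substrate and feed it inwards. Interferon makes cells build new particles in which Psmb8, Psmb9 and Psmb10 take the places of Psmb5, Psmb6 and Psmb7, and it also induces the activator subunits Psme1 and Psme2. In neurons, proteasomes turn over synaptic proteins as well as damaged ones. The constitutive genes were described here in the mouse olfactory bulb, the brain region that receives input from the nose. They were chosen by symbol, from Psma to Psmg followed by a number, without the 5 interferon-induced genes, and each was read from its brightest probe. This gave 43 genes, of which 42 were among the 27438 genes tested. Psma8, an alpha subunit of the testis, was not well above background on any of 15 arrays and was not tested. Of the 42 genes, 41 had a probe above background on all 15 arrays, and Psmb11, a beta subunit of the thymus cortex, was above it on 4 of 5 knockout, 4 of 5 Cre GFP and 2 of 5 active CRHR1 arrays.

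RNA of whole olfactory bulbs of 15 male mice aged 6 to 8 weeks was hybridised to 1-colour arrays, 1 array for each mouse, 2 weeks after injection of 500 nL of an adeno-associated virus (AAV). CRHR1 is the main receptor of corticotropin-releasing hormone, and the series altered its local signalling in 3 groups of 5 mice. The knockout mice were CRHR1-/-, of strain 129S4/SvJae, and received AAV-flex-EGFP. The Cre GFP mice carried CRHR1-Cre on C57Bl/6 and received AAV-flex-GFP, and the active CRHR1 mice, also CRHR1-Cre on C57Bl/6, received AAV-flex-(CA)CRHR1, a constitutively active receptor. A flex cassette is expressed only where Cre has turned it, so the receptor was driven in cells of the CRHR1-Cre line, whereas the deletion was in every cell. Strain, the CRHR1-Cre allele and genotype cannot be told apart where the knockout is compared. All knockout arrays and Cre GFP arrays 1 to 3 lay on slide 1, and Cre GFP arrays 4 and 5 and all active CRHR1 arrays lay on slide 2.

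Levels are log2 of the processed signal minus the array's 75th percentile, and a change is a difference of mean levels. Crhr1 itself had a level of 3.16 ± 0.12 (SD, n = 5) in the knockout and 3.63 ± 0.18 (SD, n = 5) in Cre GFP, a change of -0.47 (adjusted p = 0.0146, limma), and where its probe lies relative to the deleted part was not analysed here. Knockout 5 stood apart from the other arrays: it had the lowest 75th percentile of signal, 663 units, and the highest level within its group for 36 of the 42 proteasome genes, against 38.3% of all genes. Of the markers listed for bulb neurons, all 8 for granule cells and all 6 for mitral and tufted cells were among the genes tested. Whether they are limited to these cells was not tested. Liver was listed as a tissue that should be absent, and its Alb and Apoa1 were not above background often enough to be tested. The other gene of that list, Ttr, was tested and was called in no comparison. Its level ranged from -3.75 on knockout 2 to 0.85 on knockout 1, and it was -0.28 on Cre GFP 4. The tissue that its signal came from was not tested, so Ttr does not show whether liver was absent.

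With active CRHR1, the constitutive proteasome genes differed little. Compared with Cre GFP, 39 of the 42 had a lower mean and 3 a higher one, and their median change was -0.14, against -0.064 over all genes tested, of which 61.6% were lower. That median is 0.906 times the Cre GFP level. After quantile normalization the members' median was -0.054 and that of all genes -0.062, with 34 of the 42 lower, so there the members did not lie below all genes. With arrays centred on their medians they were -0.24 and -0.16. Only 1 of 42, the lid deubiquitinase Psmd14, passed the threshold of an adjusted p under 0.05, and it was lower: 2.38% of the members, where 4.56% of all genes were called lower and 8.46% were called in either direction. At an unadjusted p under 0.05, 8 of the 42 were lower, 19% of them, against 18.1% of all genes, and 0 were higher, against 8.95%. The arrays of the groups did not overlap for 2 members, Psmd6 and Psmd14, both lower, where 7.11% of all genes were lower without overlap and 3.29% higher. The share of members called was therefore not above the background. The 95% intervals of 39 of the 42 changes lay wholly within 0.5 of 0 on the log2 scale, Psmb11, Psme3 and Psme4 being the exceptions. In bulk tissue, fewer cells of a type and less RNA per cell cannot be told apart.

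**Figure D1:**
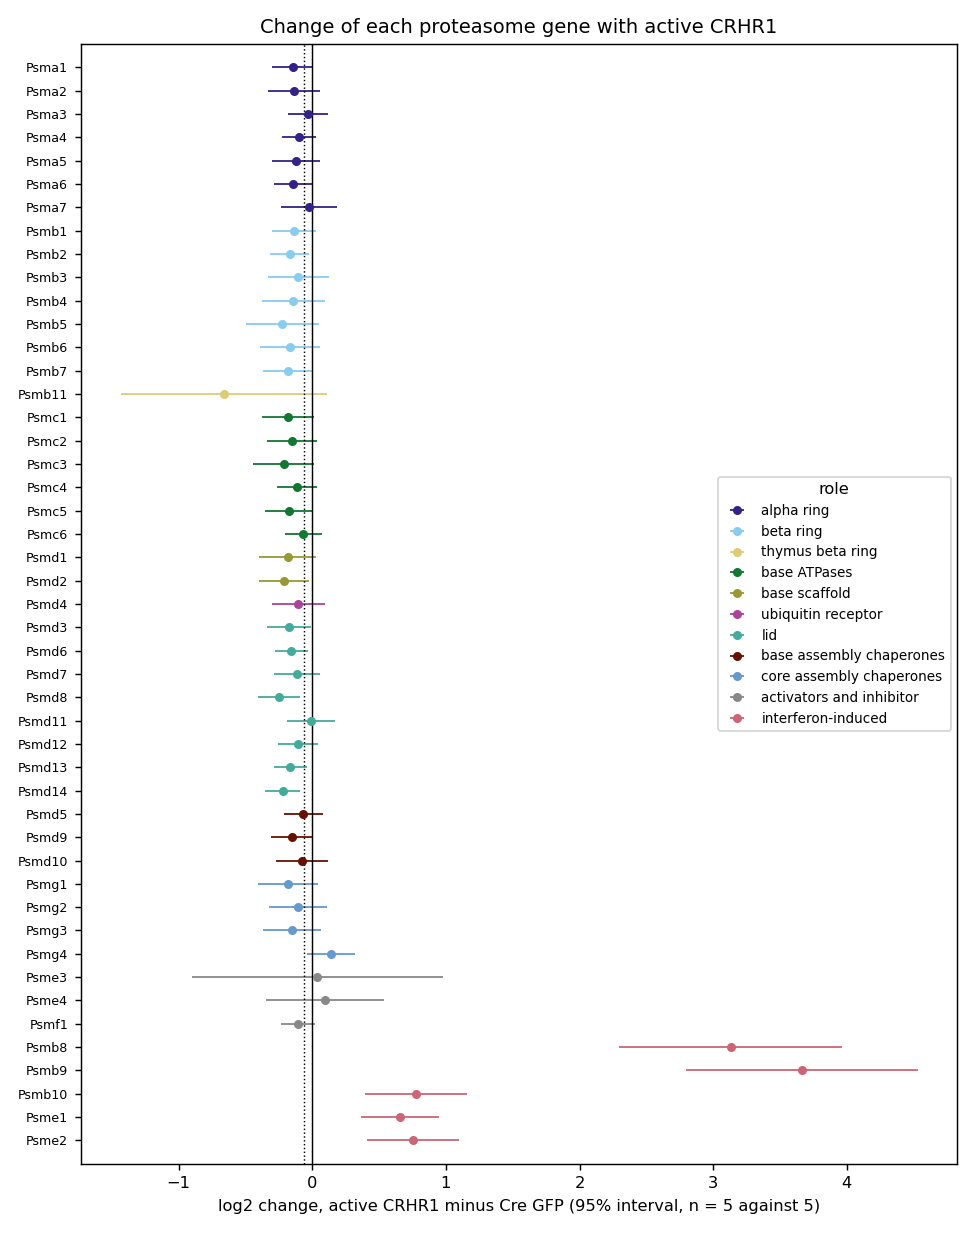
Each row is 1 of the 42 tested constitutive genes, coloured by role, or of the 5 interferon-induced genes, and points are log2 changes of active CRHR1 against Cre GFP with 95% intervals (n = 5 and 5); the solid line marks 0 and the dotted line the median of all genes, -0.064. The constitutive genes lie close to 0, between -0.66 for Psmb11 and 0.14 for Psmg4, and the induced genes lie between 0.66 and 3.66.

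Averaged over the 31 subunits of the core particle and the regulatory particle, the level was 4.23, 4.42, 4.40, 4.35 and 4.47 on the Cre GFP arrays and 4.19, 4.22, 4.25, 4.30 and 4.18 on the active CRHR1 arrays. It was 4.35, 4.34, 4.29, 4.43 and 4.67 on the knockout arrays. Cre GFP 1 lay among the active CRHR1 arrays and the other 4 Cre GFP arrays lay above them, so these groups overlapped through 1 array. The means were 4.37 ± 0.09, 4.23 ± 0.05 and 4.41 ± 0.15 (SD, n = 5 each) in Cre GFP, active CRHR1 and knockout. The 5 interferon-induced genes averaged 2.19 to 3.03 in Cre GFP, 2.61 to 3.33 in the knockout and 3.39 to 4.91 with active CRHR1, where all arrays lay above those of the other groups.

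**Figure D2:**
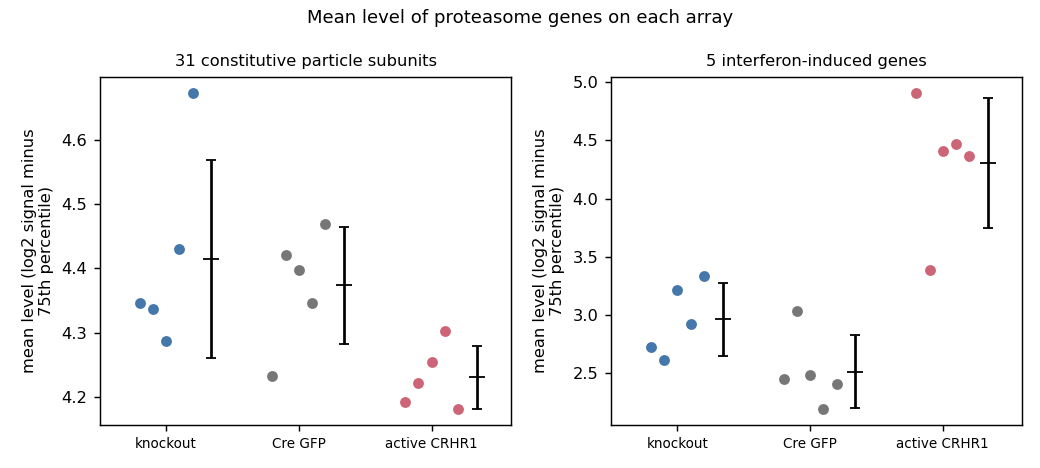
Points are the mean level on each array (log2 signal minus the array's 75th percentile) of the 31 constitutive particle subunits on the left and of the 5 interferon-induced genes on the right, with group mean and SD beside them (n = 5). On the left the groups lie within 4.18 to 4.67 and knockout 5 is highest; on the right all active CRHR1 arrays lie above the others.

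The knockout differed little from Cre GFP. None of the 42 members passed the threshold in limma, 0 higher and 0 lower, where 1.95% of all genes were called higher, 1.38% lower and 3.33% in either direction. At an unadjusted p under 0.05, 1 member was lower, against 8.94% of all genes, and 0 were higher, against 10.9%. The groups overlapped for all 42 members, where 2.41% of all genes were lower and 3.17% higher without overlap. The median change was 0.036, against 0.0049 for all genes, with 32 members higher and 10 lower, but it turned to -0.020 with arrays centred on their medians, where 24 of 42 were lower. It was -0.016 without knockout 5. The lid subunit Psmd8 was the 1 lower at an unadjusted p under 0.05, with a change of -0.18 (adjusted p = 0.208), and leaving out knockout 1 put 1 member past the threshold. The intervals of 40 of the 42 changes lay within 0.5 of 0, Psmb11 and Psme3 being the exceptions. The median SD over the members was 0.18 in the knockout, 0.11 in Cre GFP and 0.074 with active CRHR1, and over all genes it had the same order, 0.20, 0.17 and 0.15.

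Between active CRHR1 and the knockout, the share of members called lower was near that of all genes. Active CRHR1 against the knockout gave 7 of 42 lower and 0 higher, 16.7% lower, where 16.2% of all genes were called lower, 9.43% higher and 25.7% in either direction. The 7 were Psma6, Psmb2, Psmb7, Psmb11, Psmc5, Psmd2 and Psmd6. Each of these 2 groups lay on a slide of its own, and with slide as a block, which only the Cre GFP arrays link, all 7 calls were lost (adjusted p = 0.146 to 0.27). Psmb11 was above background on 2 of 5 active CRHR1 arrays, so its call rests on the groups where it was brighter. The members' median change was -0.18, against -0.068 for all genes, and 40 of the 42 had a lower mean. After quantile normalization the medians were -0.071 and -0.036, with 31 of the 42 lower. At an unadjusted p under 0.05, 22 of the 42 were lower, 52.4% of them, against 25.8% of all genes, and 0 were higher, against 15.6%. Without overlap of the arrays 7 members were lower (Psma1, Psma2, Psma4, Psma6, Psmb2, Psmd2 and Psmd6), where 11.8% of all genes were, and 0 higher, against 6.86%. The median was -0.13 without knockout 5, and then only Psmb7 and the dim Psmb11 passed the threshold. Psmb7 was called in each of the 15 fits that left out 1 array. This comparison and the one against Cre GFP share the active CRHR1 arrays, so they are given side by side and not as separate evidence.

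The alpha ring forms the ends of the core. All 7 members tested had a lower mean with active CRHR1 than in Cre GFP, with changes of -0.15 for Psma1 to -0.026 for Psma7, and 0 of 7 passed the threshold. Psma6 (probe at chr12:56511127-56511186, build mm9, plus strand) had levels of 4.10, 4.27, 4.21, 4.18 and 4.30 in Cre GFP and 4.08, 4.05, 4.07, 4.12 and 4.03 with active CRHR1. In the knockout it had levels of 4.27, 4.26, 4.12, 4.30 and 4.50. All active CRHR1 arrays lay below all knockout arrays, knockout 3 being the closest, and 1 Cre GFP array lay among them. Psma6 fell against the knockout by 0.22 (SE 0.067, adjusted p = 0.0294), a 1.17-fold decrease, and its change against Cre GFP of -0.14 did not pass (adjusted p = 0.186). Without knockout 5 the fall was 0.17 (adjusted p = 0.0547), and the call was also lost without knockout 4 and without active CRHR1 1, 2, 3 or 5, at adjusted p up to 0.065. Quantile normalization gave -0.10 (adjusted p = 0.0719), slide as a block -0.27 (adjusted p = 0.206) and centring on array medians -0.26 (adjusted p = 0.133). The other 6 members, Psma1 to Psma5 and Psma7, had changes against the knockout of -0.24 to -0.067, and 0 of them passed.

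The beta ring holds the proteolytic sites. Its 7 widely expressed members had changes of -0.23 for Psmb5 to -0.11 for Psmb3 against Cre GFP, with 0 of 7 past the threshold, and of -0.34 to -0.20 against the knockout, with 2 of 7 past it. Psmb5 carries the chymotrypsin-like site (chr14:55232957-55233016, mm9, minus strand). Its levels were 6.59, 6.90, 6.90, 6.75 and 7.04 in Cre GFP, 6.48, 6.54, 6.71, 6.81 and 6.51 with active CRHR1, and 6.82, 6.76, 6.76, 7.01 and 7.42 in the knockout. The 3 groups overlapped, and knockout 5 was the highest array. Its changes were -0.23 against Cre GFP (SE 0.13, adjusted p = 0.269) and -0.34 against the knockout (adjusted p = 0.0607), the largest change after that of Psme3 among members called in no comparison.

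Psmb6 carries the caspase-like site (chr11:70341093-70341152, mm9, plus strand) and had levels of 5.84, 6.08, 5.98, 5.89 and 6.11 in Cre GFP. With active CRHR1 it had 5.72, 5.74, 5.86, 5.97 and 5.76, and in the knockout 5.99, 6.00, 5.92, 6.07 and 6.51. The groups overlapped here too, and neither the change against Cre GFP (-0.17, adjusted p = 0.309) nor that against the knockout (-0.29, adjusted p = 0.0544) passed. Psmb7, with the trypsin-like site, was the catalytic subunit that passed. Its levels were 4.05, 4.18, 4.09, 4.08 and 4.21 in Cre GFP, 3.86, 3.86, 4.08, 4.05 and 3.83 with active CRHR1, and 4.37, 4.25, 3.97, 4.24 and 4.44 in the knockout. Knockout 3 lay among the active CRHR1 arrays and the other 4 knockout arrays above them. Psmb7 fell against the knockout by 0.32 (SE 0.086, adjusted p = 0.0182), a 1.25-fold decrease, and whichever 1 array was left out the adjusted p was at most 0.0477. With slide as a block its change was -0.36 and the call was lost (adjusted p = 0.196), and it was lost with arrays centred on their medians (adjusted p = 0.072). Quantile normalization kept it, at -0.21 (adjusted p = 0.0331). Against Cre GFP the change was -0.19 (adjusted p = 0.182).

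Psmb2, a beta subunit without a catalytic site, had levels of 0.67, 0.88, 0.84, 0.84 and 0.98 in Cre GFP and 0.66, 0.57, 0.72, 0.77 and 0.66 with active CRHR1. Its knockout levels were 0.78, 0.84, 0.83, 0.98 and 0.98, all above the active CRHR1 arrays. It fell against the knockout by 0.21 (SE 0.068, adjusted p = 0.0397), which 9 of the 15 omissions of 1 array ended (knockout 2, 4 and 5, Cre GFP 3 and 4, and active CRHR1 1, 2, 3 and 5), with adjusted p up to 0.0958. Slide as a block gave -0.32 (adjusted p = 0.146), and centring on array medians -0.25 (adjusted p = 0.154). Psmb11, whose protein is made in the thymus cortex, was above background on fewer arrays than any other member tested. Its levels were -5.56, -5.36, -5.23, -5.19 and -5.86 in Cre GFP, -6.37, -6.10, -5.71, -6.67 and -5.65 with active CRHR1, and -6.30, -3.81, -4.68, -4.41 and -4.51 in the knockout. Knockout 1 lay among the active CRHR1 arrays and the other 4 knockout arrays above all others. Its change against the knockout was -1.36 (SE 0.36, adjusted p = 0.0174). Since only 2 of the 5 active CRHR1 arrays were above background for this probe, the size of that change has little precision: it was -0.56 with normexp background correction, and with slide as a block it was not called (adjusted p = 0.27).

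**Figure D3:**
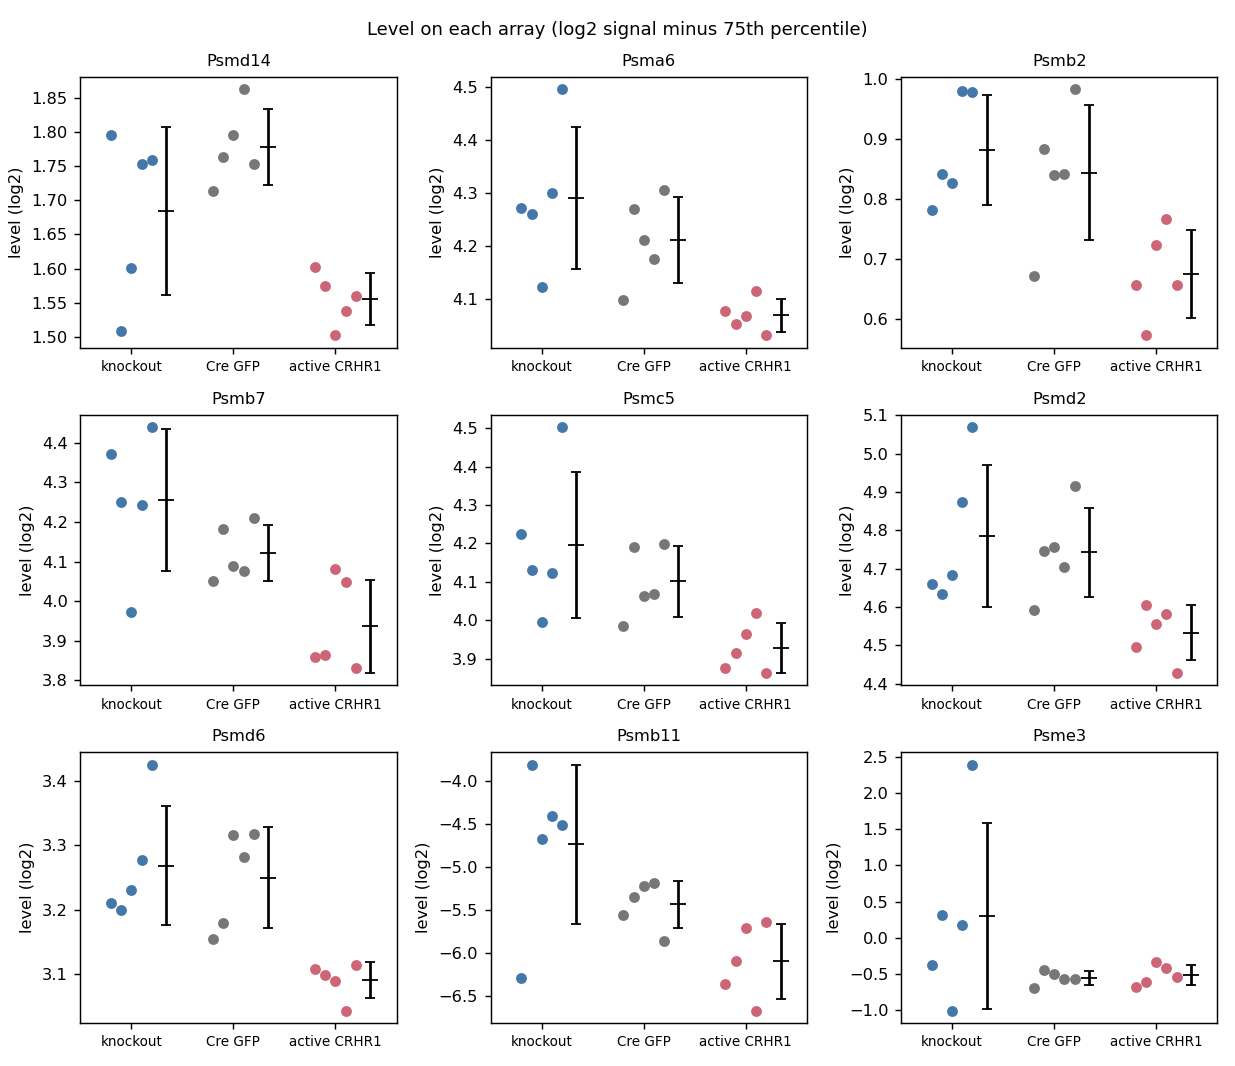
Each panel shows 1 gene, points are arrays in groups of 5 (log2 signal minus the array's 75th percentile, with its own scale in each panel) and bars are mean and SD. Active CRHR1 arrays lie low for the 7 genes called against the knockout and for Psmd14, while Psme3 shows knockout 5 at 2.40 alone.

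Promoter sequences were read from RefSeq for build GRCm38.p6, as the 250 bases before each annotated start, and 35 of the 43 members matched, with 37 windows. A pair of constitutive catalytic genes and the induced genes that replace them are shown because these pairs diverged in the arrays. Capitals mark matches, on either strand, to a searched motif. In Psmb5 (chr14:54617996-54618245, minus strand) these are TGACGT, the core of the cyclic AMP response element, and the overlapping antioxidant response core TGACNNNGC, both 47 bases before the start. In Psmb6 (chr11:70525107-70525356, plus strand) the antioxidant response core is 9 bases before it. In Psmb8 (chr17:34197945-34198194, plus strand) it is the gamma-activated site TTCNNNGAA, 97 bases before the start, and in Psmb9 (chr17:34187331-34187580, minus strand) the CCAAT box on the opposite strand.
Psmb5: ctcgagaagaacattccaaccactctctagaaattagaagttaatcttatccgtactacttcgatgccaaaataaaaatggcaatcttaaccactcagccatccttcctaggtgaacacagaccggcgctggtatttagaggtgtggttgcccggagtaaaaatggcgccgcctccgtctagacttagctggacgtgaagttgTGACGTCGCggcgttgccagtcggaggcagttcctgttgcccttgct
Psmb8: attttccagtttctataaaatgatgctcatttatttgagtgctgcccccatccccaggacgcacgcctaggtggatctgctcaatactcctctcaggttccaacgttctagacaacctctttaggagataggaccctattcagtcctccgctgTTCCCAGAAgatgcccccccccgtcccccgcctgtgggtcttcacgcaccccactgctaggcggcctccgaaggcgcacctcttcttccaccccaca
Psmb6: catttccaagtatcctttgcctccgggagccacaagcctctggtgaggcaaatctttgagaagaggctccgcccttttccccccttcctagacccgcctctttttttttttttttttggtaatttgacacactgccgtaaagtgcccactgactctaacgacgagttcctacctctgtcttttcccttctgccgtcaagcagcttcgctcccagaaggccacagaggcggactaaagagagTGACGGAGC
Psmb9: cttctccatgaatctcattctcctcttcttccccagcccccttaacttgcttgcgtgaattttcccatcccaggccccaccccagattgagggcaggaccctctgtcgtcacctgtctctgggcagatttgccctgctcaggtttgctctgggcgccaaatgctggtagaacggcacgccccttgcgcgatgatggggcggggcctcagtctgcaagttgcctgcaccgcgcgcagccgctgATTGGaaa
Over all windows of the members, TGACGT was in 4 of 37 (10.8%; Psma1, Psma5, Psmb5 and Psmd8), against 6.47% of all 32851 promoter windows, and its full palindrome TGACGTCA, which holds it, was in 0 of 37, against 1.55%. The antioxidant response core was in 5 (13.5%; Psmb5, Psmb6, Psmc6, Psmd9 and Psmd12), against 10.2%. The interferon-stimulated response element, here GAAA repeated after 2 free bases, was in 3 (8.11%; Psmb3, Psmd4 and Psmd9), against 2.98%, and TTCNNNGAA in 1 (2.7%; Psmg1), against 7.02%. CCAAT was in 13 (35.1%), against 33.8%. Among the 6 windows of the 5 induced genes, TTCNNNGAA was in 1 (Psmb8) and CCAAT in 1 (Psmb9). The other motifs searched, the interferon-stimulated response element included, were in 0 of these 6. A match describes letters in the window, and both strands were searched.

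Induced and constitutive catalytic subunits were taken as exchange pairs, each read as the log2 difference of RNA signal within an array. The array's scaling cancels in it, and only its change between groups was compared. Exchange of subunits in assembled particles was not measured. Psmb8 minus Psmb5 was -6.21, -5.61, -6.56, -6.88 and -7.06 in Cre GFP and -2.15, -4.46, -3.04, -3.03 and -2.85 with active CRHR1. In the knockout it was -6.27, -6.36, -5.14, -6.12 and -5.96. All active CRHR1 arrays lay above all others, active CRHR1 2 being the closest. The difference was higher by 3.36 than in Cre GFP and by 2.86 than in the knockout, each with p = 0.00794 in an exact two-sided permutation test, the smallest that 5 against 5 can give, and 0.0119 adjusted over 9 tests.

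Psmb9 minus Psmb6 was -5.92, -5.14, -6.15, -6.65 and -6.57 in Cre GFP, -1.35, -3.65, -2.11, -2.19 and -1.98 with active CRHR1, and -5.62, -5.92, -4.59, -5.57 and -5.45 in the knockout. Again no active CRHR1 array overlapped the others, and the mean was higher by 3.83 than in Cre GFP and by 3.18 than in the knockout (exact permutation adjusted p = 0.0119 each). Psmb10 minus Psmb7 was 0.43, 0.70, 0.47, 0.36 and 0.51 in Cre GFP, 2.03, 0.90, 1.37, 1.47 and 1.51 with active CRHR1, and 0.31, 0.39, 0.88, 0.67 and 0.82 in the knockout. These groups were also separate, with changes of 0.96 and 0.84 (exact permutation adjusted p = 0.0119 each). Within slide 2, where 2 Cre GFP arrays are left, the 3 changes against Cre GFP were 3.86, 4.36 and 1.02, each with the smallest exact permutation p that 5 against 2 allow, 0.0476 (0.0952 adjusted over 6). Between knockout and Cre GFP the 3 differences changed by 0.49, 0.66 and 0.12, none past the threshold (exact permutation adjusted p = 0.205, 0.133 and 0.389). Without Cre GFP 2 the first and second were 0.71 and 0.89, and passed (exact permutation adjusted p = 0.0446 and 0.0204). Within slide 1 they were 0.16, 0.31 and 0.079 (exact permutation adjusted p = 0.714, 0.643 and 0.714).

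**Figure D4:**
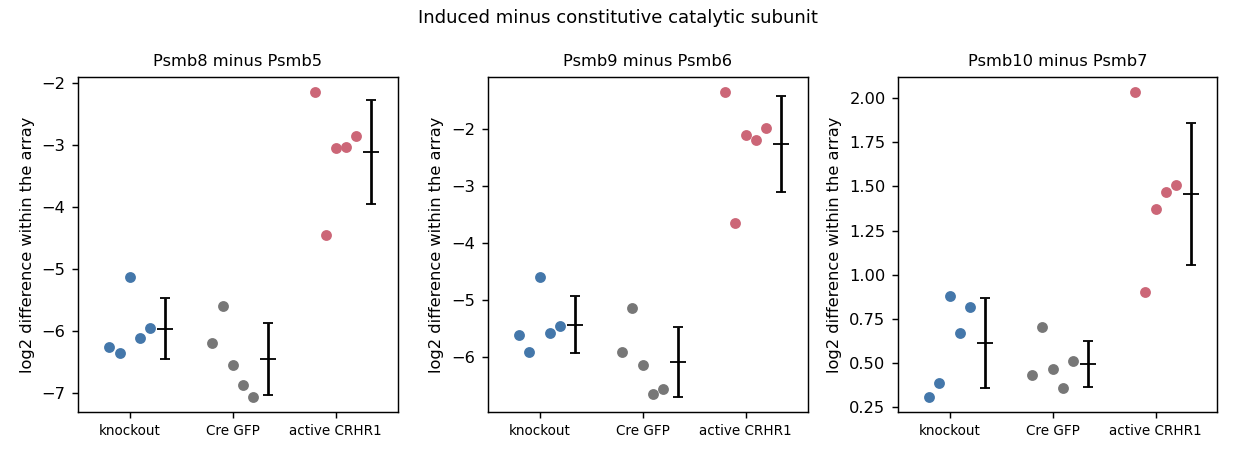
Points are the log2 difference within each array between an induced catalytic subunit and the constitutive one it replaces, with group mean and SD (n = 5); the vertical scale differs between panels, and the value itself is no ratio of transcripts. In all 3 panels every active CRHR1 array lies above every other array.

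Most of that shift against Cre GFP came from the induced partners. Psmb8 was higher with active CRHR1 than in Cre GFP by 3.13 (limma adjusted p = 3.4e-04), Psmb9 by 3.66 (2.5e-04) and Psmb10 by 0.78 (0.0159), whereas the constitutive Psmb5, Psmb6 and Psmb7 had changes of -0.23, -0.17 and -0.19. The activator subunits Psme1 and Psme2 rose by 0.66 (adjusted p = 0.0092) and 0.75 (adjusted p = 0.011). All 5 induced genes were thus called higher, where 3.90% of all genes were. Against the knockout 4 of the 5 were, where 9.43% of all genes were, Psme1 at 0.34 missing (limma adjusted p = 0.0767). In that comparison Psmb10 rose by 0.52 and its partner Psmb7 fell by 0.32. Psmb10 alone overlapped both other groups, at 4.77 to 5.89 with active CRHR1, 4.44 to 4.89 in Cre GFP and 4.64 to 5.26 in the knockout. With slide as a block, Psmb8 and Psmb9 kept their calls against Cre GFP at 3.58 and 4.17, and Psmb10, Psme1 and Psme2 lost theirs (adjusted p = 0.0824, 0.0678 and 0.0593), as they did with arrays centred on their medians (0.0693, 0.0698 and 0.0592). Against the knockout Psmb8 and Psmb9 kept theirs with slide as a block, at 3.27 and 3.73. There Psmb10 and Psme2 lost theirs with the slide block (adjusted p = 0.276 and 0.247), with median centring (0.112 and 0.123) and in 10 and 11 of 15 omissions of 1 array. In the knockout 0 of 5 were called against Cre GFP (3.33% of all genes were called in either direction).

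The base of the regulatory particle has the ATPases Psmc1 to Psmc6 and the scaffolds Psmd1 and Psmd2. The 6 ATPases had changes of -0.22 for Psmc3 to -0.067 for Psmc6 against Cre GFP, 0 of 6 past the threshold, and of -0.27 to -0.044 against the knockout, 1 of 6 past it. Psmc5 had levels of 3.99, 4.19, 4.06, 4.07 and 4.20 in Cre GFP, 3.88, 3.91, 3.96, 4.02 and 3.86 with active CRHR1, and 4.23, 4.13, 3.99, 4.12 and 4.50 in the knockout. Knockout 3 lay just inside the range of the active CRHR1 arrays. It fell against the knockout by 0.27 (SE 0.085, adjusted p = 0.0342) and had a change of -0.17 against Cre GFP (adjusted p = 0.201). Without knockout 5 its fall was 0.19 (adjusted p = 0.0573), and leaving out knockout 1 or 4 or active CRHR1 1, 2, 3 or 5 also ended the call (adjusted p up to 0.0761). Quantile normalization gave -0.16 (adjusted p = 0.0409), slide as a block -0.32 (adjusted p = 0.223) and centring on array medians -0.31 (adjusted p = 0.119).

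Psmd2, the base scaffold that receives shuttle proteins with their ubiquitinated cargo, had levels of 4.59, 4.74, 4.76, 4.70 and 4.92 in Cre GFP. It had 4.50, 4.60, 4.56, 4.58 and 4.43 with active CRHR1 and 4.66, 4.63, 4.68, 4.87 and 5.07 in the knockout. The active CRHR1 and knockout arrays did not overlap, by a narrow margin. Its fall against the knockout was 0.25 (SE 0.087, adjusted p = 0.0483), and 10 of 15 omissions ended the call, with adjusted p up to 0.109: knockout 4 or 5, Cre GFP 2, 3 or 4 and each active CRHR1 array. Without knockout 5 the fall was 0.18. Quantile normalization gave -0.11 (adjusted p = 0.121), slide as a block -0.36 (adjusted p = 0.187) and centring on array medians -0.29 (adjusted p = 0.151). Psmd1, the other scaffold, had changes of -0.19 and -0.25 against Cre GFP and the knockout (adjusted p = 0.245 and 0.0783). The ubiquitin receptor Psmd4 had changes of -0.10 and -0.11 (adjusted p = 0.491 and 0.379).

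The lid removes ubiquitin from substrates, and 1 of its 8 members passed the threshold against Cre GFP. Psmd14, the metalloprotease that cuts the chain off (chr2:61599058-61599117, mm9, plus strand), had levels of 1.71, 1.76, 1.79, 1.86 and 1.75 in Cre GFP and 1.60, 1.57, 1.50, 1.54 and 1.56 with active CRHR1. In the knockout it had 1.80, 1.51, 1.60, 1.75 and 1.76, which spans both other groups. No active CRHR1 array reached the lowest Cre GFP array. It fell against Cre GFP by 0.22 (SE 0.062, adjusted p = 0.0403), a 1.17-fold decrease, and its change against the knockout was -0.13 (adjusted p = 0.13). Leaving out knockout 4, any of Cre GFP 2 to 5 or any active CRHR1 array ended the call, with adjusted p up to 0.0877. Slide as a block gave -0.25 (adjusted p = 0.112), centring on array medians -0.32 (adjusted p = 0.114) and quantile normalization -0.17 (adjusted p = 0.0716).

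Psmd6, a structural lid subunit, had levels of 3.15, 3.18, 3.32, 3.28 and 3.32 in Cre GFP, 3.11, 3.10, 3.09, 3.04 and 3.11 with active CRHR1, and 3.21, 3.20, 3.23, 3.28 and 3.43 in the knockout. All active CRHR1 arrays lay below all arrays of both other groups. It fell against the knockout by 0.18 (SE 0.058, adjusted p = 0.038), and its change against Cre GFP was -0.16 (adjusted p = 0.0994). Leaving out knockout 4 or 5 or any active CRHR1 array ended the call (adjusted p up to 0.0755), with a fall of 0.14 without knockout 5. Quantile normalization gave -0.083 (adjusted p = 0.191), slide as a block -0.26 (adjusted p = 0.163) and centring on array medians -0.22 (adjusted p = 0.178). Among the 6 lid genes that were never called, Psmd8 came closest, at -0.25 against Cre GFP (adjusted p = 0.0528), and Psmd11 was the flattest, at -0.0091 against Cre GFP and 0.048 against the knockout. Psmd3, Psmd7, Psmd12 and Psmd13 had changes against Cre GFP of -0.18, -0.11, -0.11 and -0.16.

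Assembly chaperones build the particle and leave it. Psmd5, Psmd9 and Psmd10, which assemble the base, had changes against Cre GFP of -0.067, -0.15 and -0.077, and 0 of 3 passed in any comparison. Psmg1 to Psmg4, which assemble the core, had changes of -0.18, -0.11, -0.15 and 0.14, and 0 of 4 passed. Psmg4 was the highest member of all in that comparison (0.14, 95% interval -0.04 to 0.32, adjusted p = 0.294).

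The remaining genes encode alternative caps and an inhibitor. Psme3, a nuclear activator, had levels of -0.38, 0.31, -1.01, 0.18 and 2.40 in the knockout, -0.70, -0.44, -0.50, -0.57 and -0.57 in Cre GFP, and -0.68, -0.61, -0.33, -0.41 and -0.55 with active CRHR1. The knockout arrays were spread over a wide range around the narrow ranges of the other groups, and knockout 5 was far above the rest. Its changes were 0.86 for the knockout against Cre GFP (SE 0.44, adjusted p = 0.297), the largest among members called in no comparison, and 0.037 for active CRHR1 against Cre GFP. Psme4, another activator, read -1.26 on knockout 5 and -0.79 on Cre GFP 5, and -0.34 or higher on every other array. Its change against Cre GFP was 0.095 with active CRHR1 (adjusted p = 0.799). The inhibitor Psmf1 had a change of -0.11 (adjusted p = 0.253).

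A second kept probe was present for 10 of the 42 genes, and in active CRHR1 against Cre GFP it had the sign of the probe used in all 10. The widest gaps were in Psmd10, -0.077 against -0.28, and Psme4, 0.095 against 0.25. For Psmb5 the second probe gave -0.27.

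Genes around the proteasome were counted from lists. The alternatives, slide as a block included, were read for proteasome genes only, and not for these lists or for cell type markers. The knockout and active CRHR1 arrays lay on separate slides, and the part of slide in calls between them was not tested. Of all genes, 3.90% were called higher and 4.56% lower with active CRHR1 against Cre GFP, and 9.43% and 16.2% against the knockout. Of 13 tested proteasome-associated genes, 0 were called against Cre GFP, and against the knockout 1 was lower, Akirin2 (-0.26, adjusted p = 0.0345), which brings proteasomes into the nucleus. Of 12 genes that control proteasome transcription or process its regulators, Nfe2l2, the transcription factor of the antioxidant response, rose with active CRHR1. Its levels were 0.83, 1.11, 0.99, 0.90 and 0.84 in Cre GFP and 1.66, 1.23, 1.35, 1.55 and 1.57 with active CRHR1, without overlap. The rise was 0.54 (limma adjusted p = 0.011), and 0.37 against the knockout (adjusted p = 0.0304), where Maff also rose (0.66, adjusted p = 0.044) and Foxo4 fell by 0.63 (adjusted p = 0.0484). Nfe2l1, the factor that raises proteasome genes when proteasomes are short, was not called in any comparison.

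Of 13 ubiquitin genes and enzymes upstream, Ube2n, a ubiquitin-conjugating enzyme, fell by 0.33 against Cre GFP (adjusted p = 0.0058) and by 0.29 against the knockout (adjusted p = 0.007). Ubb, which encodes polyubiquitin, and Ube2k fell against the knockout by 0.27 and 0.19 (adjusted p = 0.0246 and 0.0456), and 0 of the 13 rose. The medians of this list, -0.13 and -0.19 against Cre GFP and the knockout, lay below those of all genes, -0.064 and -0.068. Of 11 shuttle and unfoldase genes 0 were called in any comparison, with a median of -0.13 against Cre GFP. Of 7 interferon-induced ubiquitin-system genes 6 rose with active CRHR1 against either group, among them Isg15 by 2.77 (adjusted p = 0.0023) and Usp18 by 3.20 (adjusted p = 0.0034) against Cre GFP, and Trim25 did not pass. Against Cre GFP, 0 genes of these 5 lists were called in the knockout.

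Several cell type markers were called in these comparisons. Of all genes, 3.90% were called higher and 4.56% lower with active CRHR1 against Cre GFP. Against the knockout these shares were 9.43% and 16.2%, and between knockout and Cre GFP 1.95% and 1.38%. With active CRHR1 against Cre GFP, microglia markers averaged 2.37 to 2.80 in Cre GFP and 2.97 to 3.45 with active CRHR1. Of these 8, 5 were called higher and 0 lower (median change 0.44). Their changes held both signs: Cx3cr1 at 0.17, Itgam at -0.064 and P2ry12 at -0.27 were not called. The T cell markers Cd3d and Lck were higher, and Cd3e was not called, with a change of 0.12 (limma adjusted p = 0.702). Cd3g, above background on 1 of 5 Cre GFP arrays, passed the filter only through active CRHR1 and is not counted, and Cd8a and Cd8b1 were not above background often enough to be tested. Pan-neuronal markers averaged 4.90 to 5.09 in Cre GFP and 4.60 to 4.81 with active CRHR1, with 3 of 6 lower and a median change of -0.31, further from 0 than the proteasome median of -0.14. Granule cell markers averaged 5.10 to 5.29 and 4.82 to 5.10, with 3 of 8 lower (median -0.23), mitral and tufted cell markers had 1 of 6 lower (median -0.18), and oligodendrocyte markers had 2 of 5 lower (median -0.32). Astrocyte markers had 1 of 5 higher (Gfap), and 0 of 5 endothelial and 0 of 3 sensory axon markers were called. Against the knockout, where 7 proteasome genes were called lower, oligodendrocyte markers had 4 of 5 lower (median -0.60) and averaged 3.59 to 4.01 in the knockout and 2.94 to 3.49 with active CRHR1. Pan-neuronal markers had 3 of 6 lower and Snap25 higher (0.65). Microglia markers had 3 of 8 higher and P2ry12 lower (-0.54, limma adjusted p = 0.0076). Granule cell markers had 1 of 8 lower and mitral and tufted cell markers 1 of 6, near the 16.2% of all genes. Astrocyte markers had 1 higher (Gfap) and 1 lower (Slc1a3), and of T cell markers Cd3d was higher. Between knockout and Cre GFP, the neuronal Snap25 and Etv1 of the granule cell list were called lower (changes of -0.98 and -0.34). Aqp4, Slc1a3 and Mbp were higher by 0.34, 0.37 and 0.41. These were 1 of 6 pan-neuronal, 1 of 8 granule cell, 2 of 5 astrocyte and 1 of 5 oligodendrocyte markers. The medians of these lists were -0.074, -0.12, 0.067 and 0.28. Their changes ranged from -0.98 to 0.049, -0.34 to 0.019, -0.80 to 0.37 and -0.24 to 0.41, so each list held both signs. The part of these shifts in cell type markers in the proteasome values was not tested.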

How the data were processed

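Total RNA was labelled with Cy3, per the labels' protocols, and each mouse had its own array. The authors' deposited scanner files give 1 processed intensity for each spot. Per the file headers, Agilent Feature Extraction 10.7.3.1 subtracted background, detrended each array and set the flags, with no scaling across arrays. The authors' deposited series table holds a linear signal, found here to be that intensity divided by the array median. Probe positions use build mm9, per the file headers.

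Control and outlier spots were dropped, log2 intensity was scaled to the array's 75th percentile, and spots were averaged by probe. Probes had to be well above background on 4 or more arrays in 1 group of 5, which 33965 of 55681 were, and the brightest such probe stood for its gene. All 15 arrays entered 1 limma 3.58.1 fit in R 4.3.3, adjusted by Benjamini-Hochberg over 27438 genes with a threshold of 0.05, and tested on simulated data. The number of arrays limits the precision. Exchange pairs were tested by exact two-sided permutation, adjusted over 3 pairs and 3 comparisons.

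The members and the gene lists were chosen with earlier results of these data known. Values by array are given for members past the threshold in any comparison, for Psmb5, Psmb6 and Psmb7, and for the 2 largest changes among members that missed it. Other genes were named if interferon-induced or past the threshold in a list, up to 8 for each list. Nfe2l1, Trim25, Crhr1, Ttr, Cd3e and the liver and T cell genes given as not tested or not counted were added after their values were seen. Slide, pairing, normalization, background correction, filter, variance model and single arrays were varied as alternatives. Their values were read for proteasome genes only, and not for the other lists. Replicate numbers did not pair the arrays: same-numbered deviations from the group means correlated at -0.22 to 0.41.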

Additional observations from a re-analysis of the deposited data

Results flagged for a closer look

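Within groups of 5, a highest or lowest array was set against its nearest neighbour by Dixon's 95% criterion. Of 141 groups of levels, 13 were past it (9.22%), where chance gives about 1 in 20 for a single group. The groups are not independent, since all genes were read from the same arrays. Knockout 5 was the highest of its group for 36 of the 42 members. The share of 9.22% therefore cannot be judged against 1 in 20. Knockout 5 was high for 7 genes: Psma1 at 4.26, Psma2 at 5.90, Psma3 at 5.34, Psma5 at 4.36, Psmb6 at 6.51, Psmd7 at 3.44 and Psmd10 at 0.784. The same array was low for the activator Psme4, at -1.26, for which Cre GFP 5 was also low, at -0.794. Cre GFP 1 was low for the ATPase Psmc2, at 5.01. With active CRHR1, array 5 was low for the lid subunit Psmd12, at 3.85, array 2 was high for the base chaperone Psmd5, at 1.59, and array 2 was low for the induced subunit Psmb9, at 2.09, against 3.75 for the next array.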

How the results depend on the processing

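Apart from omissions of arrays, the median change of the members moved by at most 0.109 in 40 of 41 values. That bound is the pooled SD of the members' median on each array. It is wide beside the changes themselves, 0.036, -0.14 and -0.18, so a move within it does not show that a median held. The exception was active CRHR1 against the knockout after quantile normalization, at -0.071. The median change stayed negative for active CRHR1 against either group in every alternative run. For the knockout against Cre GFP it turned negative with median centring, the authors' values, array weights and without knockout 5 (-0.020 to -0.0070). Counts of called members moved more. Against Cre GFP the 1 called member became 0 with quantile normalization, with median centring, with the authors' values (30 members there), with no filter, with slide as a fixed block, within slide 2 and with the replicate block. It became 2 with normexp, with probes above background on all 15 arrays, with slide as a random block and with an intensity trend, and 9 with array weights. Against the knockout the 7 became 4 with quantile normalization and with the replicate block, 1 with median centring and with the authors' values, 2 with no filter, 3 when only these groups were fitted, 0 with slide as a fixed block, 20 with slide as a random block and 14 with an intensity trend. Leaving out 1 array gave 0 to 1 called for the knockout against Cre GFP, 0 to 4 for active CRHR1 against Cre GFP (4 without Cre GFP 1, 3 without knockout 5) and 2 to 15 against the knockout (15 without knockout 3; 2 without knockout 4 or 5 or active CRHR1 1, 2, 3 or 5). The cause was not tested.

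Paired by replicate number, the exchange pairs changed by 3.36, 3.83 and 0.96 against Cre GFP and by 2.86, 3.18 and 0.84 against the knockout, all with an exact adjusted p of 0.0938, since 5 pairs cannot give a p below 0.0625. Within slide 2 they were 3.86, 4.36 and 1.02. Leaving out 1 array gave 0.29 to 0.71 for Psmb8 minus Psmb5 and 0.44 to 0.89 for Psmb9 minus Psmb6 between knockout and Cre GFP. Median centring moved all genes by -0.056, -0.098 and -0.041 in the 3 comparisons and left 24, 41 and 40 of the 42 members lower, where the 75th percentile gave 10, 39 and 40 and quantile normalization 18, 34 and 31. Signal was above background on all arrays for 41 members, so dimness limits Psmb11.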
